A study of Homo sapiens with 91 samples.

Results

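Ribosome assembly genes linked to MYC were followed in 3 human cancer cell lines. The cells received KI-CDK9d-32, which removes the kinase CDK9 (a degrader), KB-0742, which blocks its activity (an inhibitor), or the DMSO vehicle alone. The set holds 42 genes, given by name and located in the count tables by Ensembl identifier, out of 62710 genes listed per library. All 42 passed the filter on low counts in every line, among 11664 genes tested in MOLT4, 12471 in PSN1 and 12058 in RH4. Ribosomes are built in the nucleolus, where RNA polymerase I transcribes the ribosomal RNA precursor and a large set of assembly factors modify, cleave and fold it. Small nucleolar ribonucleoproteins (snoRNPs) place the chemical modifications, the small-subunit processome cleaves the leading part of the precursor, and separate factors mature the large subunit and release it to the cytoplasm. The transcription factor MYC is known to bind the promoters of many of these genes at a CACGTG element (the E-box), and CDK9, in the elongation factor P-TEFb, releases paused RNA polymerase II, also at MYC.

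Libraries made from total RNA by a SMART-seq2 method numbered 91, in 23 groups of 4, except MOLT4 with DMSO at 4 h, which held 3. MOLT4, an acute lymphoblastic leukemia line, was sampled after 2, 4 and 8 h in KI-CDK9d-32, KB-0742 or DMSO. PSN1, a pancreatic adenocarcinoma line, received KI-CDK9d-32 or DMSO for 2, 4 and 8 h and KB-0742 for 4 and 8 h. RH4, a rhabdomyosarcoma line, received KI-CDK9d-32, KB-0742 or DMSO for 4 and 8 h. The series' design text writes RH1 for that line. The labels name no engineered allele in any group, each line is a single established line, and doses are not given in the labels. Estimated gene counts summed to 1598283 to 3240753 per library in MOLT4, 1998712 to 3227113 in PSN1 and 1670111 to 3136769 in RH4. Each line's own marker list was the highest in its libraries: the summed level was 1840 to 3736 CPM for T-lineage markers in MOLT4, 2762 to 7589 CPM for epithelial markers in PSN1 and 2707 to 4833 CPM for myogenic markers in RH4, while the lists of the other lines reached at most 95.9 CPM. Replicates are described as biological, with no mention of independent cultures, so the p-values measure the spread between these libraries, which may be technical.

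The unit of the tests is the log2 fold change ± SE of the edgeR quasi-likelihood test on counts with TMM scaling, which sets a gene against the other genes of the same libraries, and a gene is called at a Benjamini-Hochberg adjusted p under 0.05. Libraries were also left out 1 at a time, and a call lost without a library, or without any of several named ones, is said to be so. Each lysate received the same quantity of ERCC and SIRV spike-in RNA, so a second scaling by spike-in counts measures RNA per lysate. Fewer cells and less RNA per cell cannot be told apart in it. Scaled by spike-ins, edgeR called 0 members higher than DMSO in any comparison, with 0 also at an unadjusted p under 0.05, against 0.016% to 1.2% of all tested genes. Every call of a member as higher than DMSO was therefore made in TMM only. Some of these members, such as WDR43 with KB-0742 in MOLT4 at 8 h, kept a positive value with spike-in scaling without a call. A value not called does not show that a member was not higher. A spike-in value is printed beside a called log2 fold change where its sign turned round. Values not called carry no spike-in value, and their sign may have turned too. DESeq2 was not run with spike-in scaling. In MOLT4 at 8 h spike-ins took 39.9% ± 14.8 of counts with KI-CDK9d-32, 21.5% ± 2.59 with KB-0742 and 14.5% ± 1.91 with DMSO (SD, n = 4 each). Replicate 3 of the MOLT4 KI-CDK9d-32 group at 8 h stood apart with 61.5% spike-ins. Without it 32 members were lower and 3 higher than with DMSO, close to the counts with it. In MOLT4 at 4 h the highest spike-in shares were 49.4% in KB-0742 replicate 3 and 39.5% in KI-CDK9d-32 replicate 3. Without each of them 7 and 20 members were lower and 16 and 3 higher than with DMSO. Comparisons of the 2 compounds with DMSO share the DMSO libraries of that time.

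The members differ widely in abundance. With DMSO the members had a median level of 21.5 TPM (a level that accounts for gene length) in MOLT4, 18.6 TPM in PSN1 and 15.4 TPM in RH4. NPM1 (nucleophosmin, an abundant nucleolar chaperone) was the highest of the members in each line, with a mean of 1088 ± 109 TPM in MOLT4 (SD, n = 11), 1056 ± 162 TPM in PSN1 (n = 12) and 870.0 ± 98.4 TPM in RH4 (n = 8). NPM1 has 45 named pseudogenes, so its estimated counts are uncertain. FBL (fibrillarin, the ribose methyltransferase of box C/D snoRNPs) had 371, 197 and 267 TPM in MOLT4, PSN1 and RH4. UTP20, a large scaffold protein of the small-subunit processome, was the lowest member in each line, at 1.18, 1.43 and 1.33 TPM. MYC itself averaged 93.7 TPM in MOLT4 and 110.0 TPM in PSN1 but 15.7 TPM in RH4, so the lines differ in the MYC level against which the members are set.

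MYC moved differently with the 2 compounds and the 3 lines. In MOLT4 it was far below DMSO at every time with KI-CDK9d-32. KB-0742 left it above DMSO at 2 and 4 h in TMM but not at 8 h, and neither call held with spike-in scaling. In the other lines KI-CDK9d-32 left it lower at 2 and 4 h in PSN1 and at 4 h in RH4. There it did not pass the test at 8 h, nor with KB-0742 at any time, in TMM. With spike-in scaling MYC was called lower with KB-0742 in RH4 at 4 and 8 h. Spike-in results of the other MYC values not called in TMM are not given here, and some may be called lower under that scaling. At 2 h in MOLT4 the libraries had 39.6, 42.2, 40.7 and 47.1 CPM with KI-CDK9d-32, 332, 321, 293 and 316 CPM with KB-0742 and 187, 167, 148 and 170.5 CPM with DMSO. At 4 h the MOLT4 levels were 20.7, 32.7, 21.5 and 14.01 CPM with KI-CDK9d-32, 309, 324, 264 and 359 CPM with KB-0742 and 183, 128 and 156 CPM with DMSO. At 8 h they were 50.5, 59.8, 38.7 and 30.4 CPM with KI-CDK9d-32, 127, 159, 169 and 204 CPM with KB-0742 and 179, 157, 165 and 176 CPM with DMSO. No KI-CDK9d-32 library overlapped the other groups at any of these times, whereas KB-0742 overlapped DMSO at 8 h. The log2 fold change with KI-CDK9d-32 against DMSO was -1.99 ± 0.15 (adjusted p = 2.2e-13) at 2 h, -2.77 ± 0.17 (adjusted p = 5.37e-17) at 4 h and -1.91 ± 0.16 (adjusted p = 3.94e-14) at 8 h. With KB-0742 against DMSO it was 0.91 ± 0.14 (adjusted p = 9.93e-07, 0.096 with spike-in scaling) at 2 h, 1.02 ± 0.15 (adjusted p = 4.6e-07, -0.28 with spike-in scaling) at 4 h and -0.04 ± 0.14 (adjusted p = 0.846) at 8 h. The effect at 8 h minus that at 4 h was 0.86 ± 0.24 (adjusted p = 0.0116, -0.89 with spike-in scaling) for KI-CDK9d-32 and -1.05 ± 0.21 (adjusted p = 0.000164) for KB-0742. The KB-0742 difference was not called with spike-in scaling, at -1.05. The KI-CDK9d-32 call was lost without KI-CDK9d-32 8 h replicate 2 or DMSO 4 h replicate 1, with an adjusted p of up to 0.0597.

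In PSN1 MYC had 133 ± 17.3 CPM with KI-CDK9d-32 and 243 ± 23.2 CPM with DMSO at 2 h (SD, n = 4 each), with no overlap (-0.87 ± 0.14, adjusted p = 0.000246). At 4 h it had 136 ± 15.9 CPM with KI-CDK9d-32, 239 ± 13.3 CPM with KB-0742 and 267 ± 21.8 CPM with DMSO, a log2 fold change of -0.97 ± 0.14 (adjusted p = 3.96e-06) with the degrader and -0.16 ± 0.13 (adjusted p = 0.422) with the inhibitor. At 8 h neither passed the test, at -0.25 ± 0.14 (adjusted p = 0.202) and 0.31 ± 0.13 (adjusted p = 0.0722), with 204, 215, 185 and 169 CPM with KI-CDK9d-32, 321, 356, 268 and 195 CPM with KB-0742 and 185, 249, 224 and 259.9 CPM with DMSO. In RH4 MYC fell at 4 h with KI-CDK9d-32, to 7.31, 10.3, 16.9 and 20.5 CPM, against 27.7, 30.0, 21.8 and 41.4 CPM with DMSO (-1.11 ± 0.24, adjusted p = 0.00454). At 8 h the RH4 values were -0.22 ± 0.24 (adjusted p = 0.588) with KI-CDK9d-32 and 0.35 ± 0.24 (adjusted p = 0.234) with KB-0742, and at 4 h with KB-0742 0.13 ± 0.24 (adjusted p = 0.703). With spike-in scaling both KB-0742 values of MYC in RH4 turned negative and were called lower. MYCN, the paralog expressed in some rhabdomyosarcomas, did not pass the test against DMSO in RH4 with either compound, with adjusted p of 0.832 and 0.191 for KI-CDK9d-32 and 0.171 and 0.415 for KB-0742 at 4 and 8 h. With spike-in scaling the falls of MYC at 2 h in PSN1 and at 4 h in RH4 were not called, at -1.13 and -1.37. In PSN1 at 2 h, where MYC was lower, none of the 42 members was called with KI-CDK9d-32 in either direction by edgeR, with 2 lower and 1 higher at an unadjusted p under 0.05 and 0 by DESeq2. Over all tested genes the shares were 0.353% lower and 0.128% higher. With spike-in scaling edgeR also called 0 lower, with 3 at an unadjusted p under 0.05, against 0.104% of all tested genes.

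**Figure D1:**
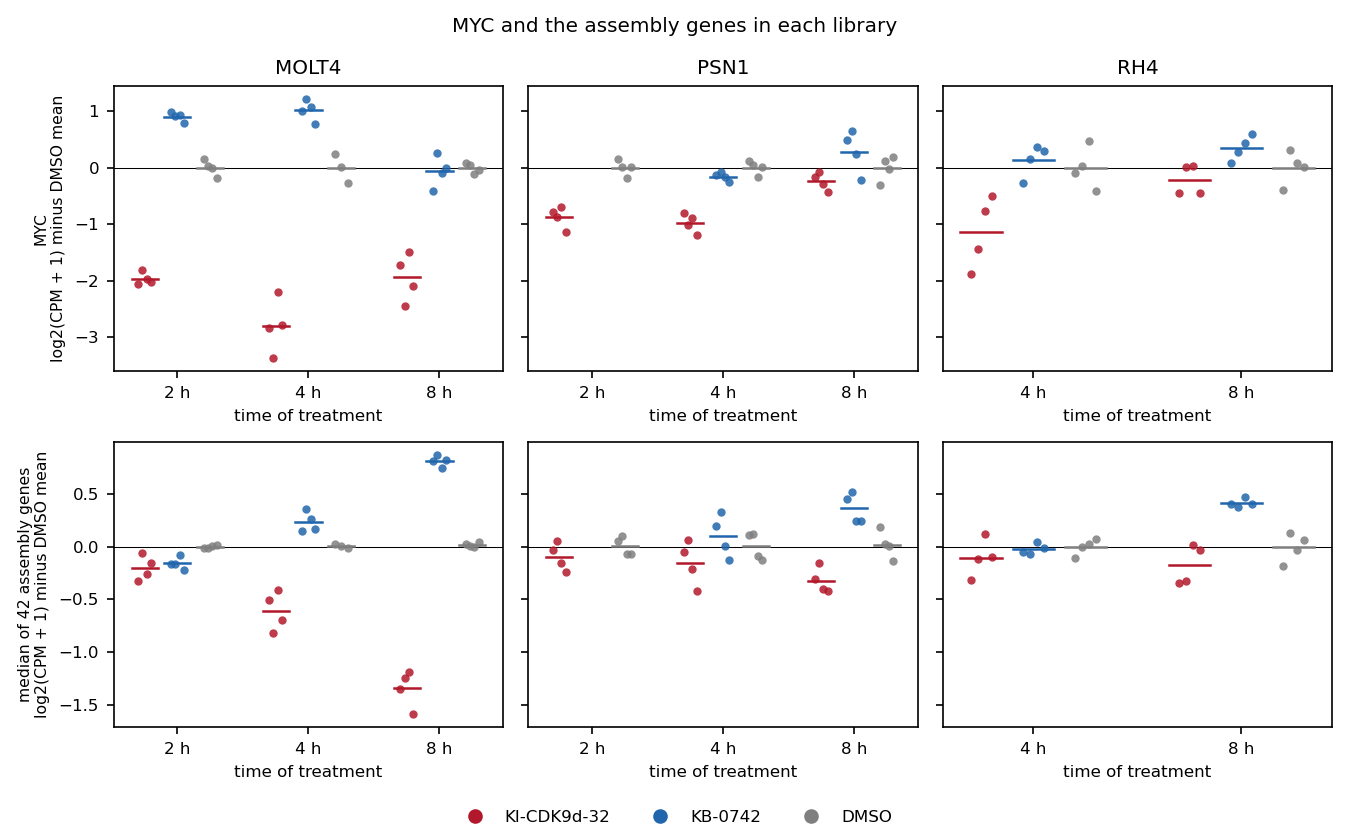
MYC (upper row) and the median of the 42 members (lower row) in every library of the 3 lines, as log2(CPM + 1) minus the mean of the DMSO libraries of the same time, with a bar at each group mean. The x axis gives hours of treatment. In MOLT4 at 8 h the member medians lie at -1.58 to -1.19 with KI-CDK9d-32 and 0.74 to 0.87 with KB-0742, while MYC with KB-0742 overlaps DMSO.

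In MOLT4 most of the assembly genes were lower with KI-CDK9d-32 than with DMSO by 8 h, and the number grew with time. At 2 h 9 of 42 were lower and 3 higher, with a median log2 fold change of -0.21. The background over all genes tested was 5.41% lower and 4.57% higher. 1 was higher without KI-CDK9d-32 replicate 2 or DMSO replicate 1 or 4, and 8 of the 12 calls were lost without some library. With spike-in scaling edgeR called 0 lower, with 9 at an unadjusted p under 0.05, against 1.65% of all tested genes, and the median was -0.56. At 4 h 21 of 42 were lower and 4 higher, with a median of -0.57. Among all genes tested 18.9% were lower and 13.6% higher. 2 were higher without KI-CDK9d-32 replicate 1 or 2 or DMSO replicate 1 or 4. With spike-in scaling 30 were lower, against 37.0% of all tested genes. At 8 h 33 of 42 were lower and 4 higher, with a median of -1.40 and a range of -3.72 to 0.96. The shares of all tested genes were 28.7% lower and 20.8% higher. The median over all genes was -0.18. MYC was already low at 2 h, when the median of all genes was -0.02 and that of the members -0.21. At 8 h the fall took in 4 of the 5 snoRNP core proteins, 13 of the 14 small-subunit factors, 14 of the 16 large-subunit factors, 1 of the 5 nucleolar scaffold and chaperone proteins and 1 of the 2 regulators. The median was -1.75 for the small-subunit factors, -1.54 for the large-subunit factors and 0.23 for the scaffold and chaperone proteins, of which NOLC1, NPM1 and DDX21 were higher with TMM scaling and all 5 lower with spike-in scaling.

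**Figure D2:**
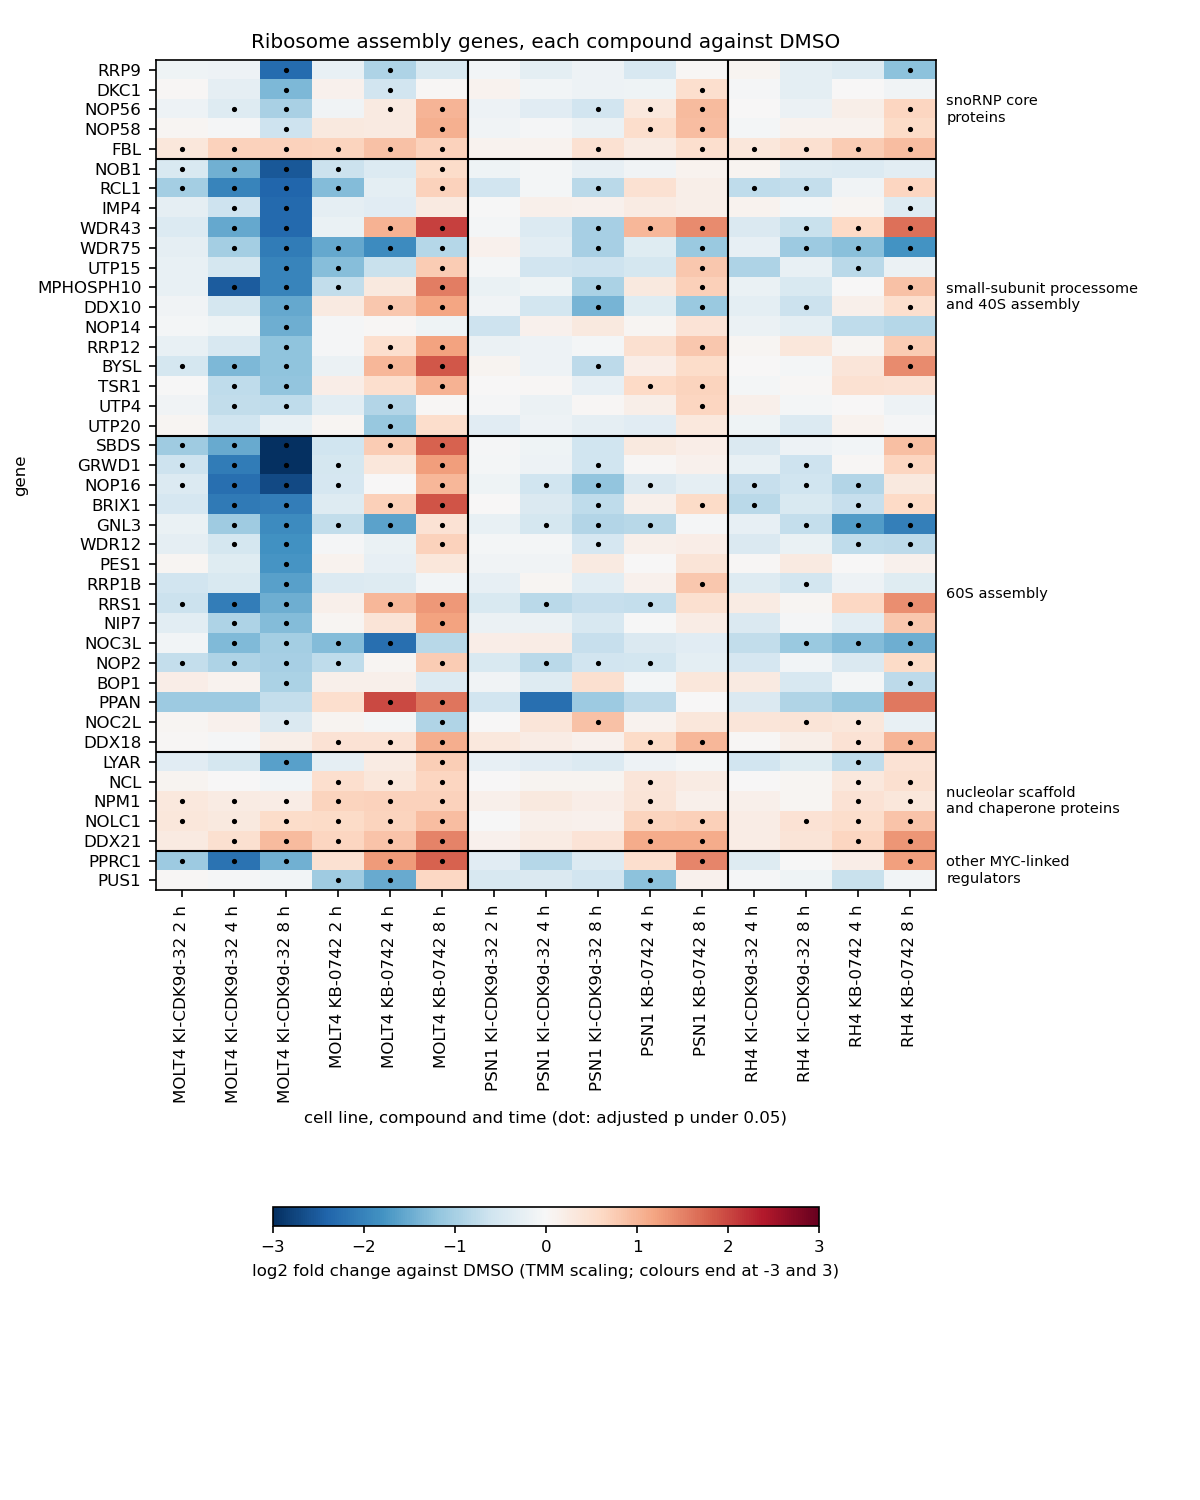
Log2 fold change (colour, TMM scaling) of the 42 members (rows, grouped by role) for each compound against DMSO by line and time (columns). A dot marks an adjusted p under 0.05. The MOLT4 columns at 8 h hold 33 lower and 4 higher members with KI-CDK9d-32 and 2 lower and 29 higher with KB-0742. The shares of all tested genes are 28.7% lower and 20.8% higher, and 25.8% lower and 23.4% higher. With spike-in scaling those columns hold 42 lower and 10 lower members and none higher, against 91.0% and 54.3% of all tested genes lower.

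Within each role the member that fell most at 8 h was well below its DMSO level. SBDS, which helps to free the new large subunit for translation and is mutated in Shwachman-Diamond syndrome, had 2.62, 0.610, 0 and 0.585 CPM with KI-CDK9d-32, 54.7, 58.1, 34.2 and 43.3 CPM with KB-0742 and 14.2, 16.2, 8.46 and 16.2 CPM with DMSO. These levels rest on 4, 1, 0 and 1 reads in the KI-CDK9d-32 libraries, against 121, 111, 76 and 114 with KB-0742 and 52, 52, 24 and 50 with DMSO, and the SBDS gene overlaps TYW1 and has 1 named pseudogene. The 3 groups did not overlap, with KB-0742 highest and KI-CDK9d-32 lowest, and the log2 fold change with KI-CDK9d-32 against DMSO was -3.72 ± 0.46 (adjusted p = 2.09e-09). NOB1, the endonuclease that makes the final cut of the small-subunit rRNA, had 16.4, 12.8, 4.61 and 12.3 CPM with KI-CDK9d-32, 115, 89.6, 98.4 and 107 CPM with KB-0742 and 65.4, 70.8, 79.3 and 65.1 CPM with DMSO. In CPM its KI-CDK9d-32 libraries lay below every DMSO library and its KB-0742 libraries above (-2.55 ± 0.20, adjusted p = 8.68e-16 with the degrader). With spike-in scaling it was not called higher with KB-0742. RRP9, a specific protein of the snoRNP that seeds the small-subunit processome, had 12.5, 41.5, 7.38 and 14.6 CPM with KI-CDK9d-32, 43.4, 45.0, 91.7 and 103 CPM with KB-0742 and 102, 107, 94.8 and 88.0 CPM with DMSO. All 4 KI-CDK9d-32 libraries were below DMSO (-2.31 ± 0.28, adjusted p = 2.02e-08), and the KB-0742 libraries overlapped those of DMSO.

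PPRC1, a coactivator of the PGC-1 family grouped with the regulators, had 12.5, 14.6, 6.46 and 15.8 CPM with KI-CDK9d-32, 111, 138, 107 and 124 CPM with KB-0742 and 38.7, 38.3, 22.5 and 39.5 CPM with DMSO. DMSO replicate 3 was the low one of its group, and even so no KI-CDK9d-32 library reached it (-1.45 ± 0.28, adjusted p = 3.99e-05). LYAR, a nucleolar zinc-finger protein, had 1.97, 4.88, 4.61 and 8.77 CPM with KI-CDK9d-32, 26.7, 28.8, 24.7 and 27.7 CPM with KB-0742 and 16.9, 14.3, 17.3 and 15.9 CPM with DMSO, and was the only scaffold member to fall with TMM scaling (-1.63 ± 0.33, adjusted p = 5.39e-05). FBL and DDX21, an RNA helicase that links RNA polymerase I transcription to rRNA processing, went the other way relative to the other genes. FBL had 514, 490.0, 464 and 618 CPM with KI-CDK9d-32, 554, 540.0, 492 and 525 CPM with KB-0742 and 325, 342, 305 and 329 CPM with DMSO, with both compounds above every DMSO library, and its log2 fold change with KI-CDK9d-32 was 0.68 ± 0.09 (adjusted p = 2.59e-08, -2.09 with spike-in scaling). DDX21 had 134, 98.3, 116 and 116 CPM with KI-CDK9d-32, 183, 156, 163 and 172 CPM with KB-0742 and 60.5, 64.5, 55.0 and 59.2 CPM with DMSO, with KB-0742 highest, KI-CDK9d-32 between and no overlap between groups, at 0.96 ± 0.13 (adjusted p = 2.01e-08, -1.87 with spike-in scaling) with KI-CDK9d-32.

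**Figure D3:**
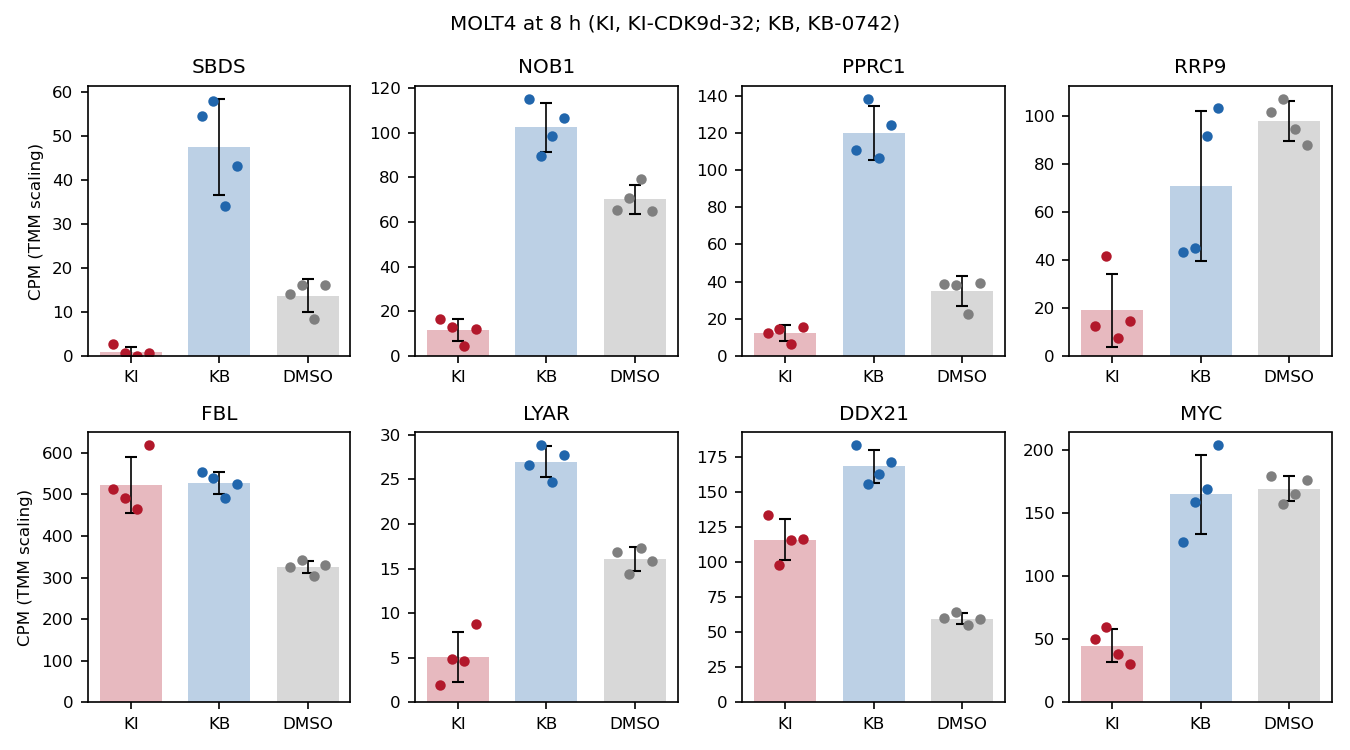
CPM with TMM scaling in the MOLT4 libraries at 8 h for the 7 members named by role and for MYC. Bars give the mean, whiskers the SD and points the 4 libraries of KI-CDK9d-32 (KI), KB-0742 (KB) and DMSO. SBDS, NOB1, PPRC1 and LYAR lie below DMSO with KI-CDK9d-32 and above it with KB-0742 in CPM. Spike-in scaling called no member above DMSO with KB-0742. FBL and DDX21 lie above DMSO with both compounds in CPM. With spike-in scaling both genes lie below DMSO with KI-CDK9d-32, and FBL also with KB-0742.

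In the GENCODE annotation of GRCh38 SBDS (ENSG00000126524) covers bases 66987677 to 66995601 of chromosome 7 on the minus strand, and NOB1 (ENSG00000141101) covers bases 69741867 to 69754940 of chromosome 16 on the minus strand. RRP9 (ENSG00000114767) covers bases 51933430 to 51941941 of chromosome 3 on the minus strand, PPRC1 (ENSG00000148840) covers bases 102132994 to 102150331 of chromosome 10 on the plus strand and LYAR (ENSG00000145220) covers bases 4267701 to 4290169 of chromosome 4 on the minus strand. FBL (ENSG00000105202) covers bases 39834458 to 39846414 of chromosome 19 on the minus strand, and DDX21 (ENSG00000165732) covers bases 68956128 to 68985073 of chromosome 10 on the plus strand. Values are gene-level sums of the deposited counts over these genes, with exons and untranslated regions not separated.

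The promoter windows of 6 of these members are shown because the E-box CACGTG is the element through which MYC is known to act, and they include members that fell and members that rose. Windows run from 250 bases before to 50 after the annotated start, are RefSeq sequences of GRCh38.p14 read 5′ to 3′ on the gene's strand, and carry CACGTG in capitals. RRP9 is at chr3:51941855-51942154 (minus strand), FBL at chr19:39846330-39846629 (minus strand), LYAR at chr4:4289972-4290271 (minus strand), DDX21 at chr10:68956397-68956696 (plus strand), NOB1 at chr16:69754877-69755176 (minus strand) and SBDS at chr7:66995537-66995836 (minus strand). The first base of the element lies at position -5 relative to the start in RRP9, 7 in FBL, -64 in LYAR and -31 in DDX21 (negative values lie before the start). LYAR and DDX21 each have another window without it, and the windows of NOB1 and SBDS hold none.
RRP9: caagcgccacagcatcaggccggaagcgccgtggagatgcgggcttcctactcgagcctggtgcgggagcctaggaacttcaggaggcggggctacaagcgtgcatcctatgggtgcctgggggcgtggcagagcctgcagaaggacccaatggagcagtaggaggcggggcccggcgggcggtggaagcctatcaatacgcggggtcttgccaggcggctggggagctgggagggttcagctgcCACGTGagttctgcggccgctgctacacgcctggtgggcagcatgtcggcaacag
FBL: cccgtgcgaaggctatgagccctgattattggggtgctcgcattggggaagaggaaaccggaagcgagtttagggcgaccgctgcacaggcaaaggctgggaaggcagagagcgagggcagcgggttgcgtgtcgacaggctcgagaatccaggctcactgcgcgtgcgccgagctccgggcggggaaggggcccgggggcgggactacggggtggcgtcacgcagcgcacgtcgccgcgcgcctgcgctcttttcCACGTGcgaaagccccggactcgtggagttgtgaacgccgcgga
LYAR: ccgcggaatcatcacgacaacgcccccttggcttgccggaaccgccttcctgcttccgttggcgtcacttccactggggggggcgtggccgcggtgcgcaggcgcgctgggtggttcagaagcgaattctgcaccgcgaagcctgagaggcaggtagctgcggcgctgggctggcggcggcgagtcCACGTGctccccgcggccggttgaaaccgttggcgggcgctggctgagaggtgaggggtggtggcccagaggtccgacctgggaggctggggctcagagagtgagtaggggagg
DDX21: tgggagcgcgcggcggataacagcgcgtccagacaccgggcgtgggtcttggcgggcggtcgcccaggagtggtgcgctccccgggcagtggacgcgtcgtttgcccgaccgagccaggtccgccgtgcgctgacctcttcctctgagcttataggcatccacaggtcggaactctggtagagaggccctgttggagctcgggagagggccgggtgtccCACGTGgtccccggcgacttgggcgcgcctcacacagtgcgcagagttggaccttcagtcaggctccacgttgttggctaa
NOB1: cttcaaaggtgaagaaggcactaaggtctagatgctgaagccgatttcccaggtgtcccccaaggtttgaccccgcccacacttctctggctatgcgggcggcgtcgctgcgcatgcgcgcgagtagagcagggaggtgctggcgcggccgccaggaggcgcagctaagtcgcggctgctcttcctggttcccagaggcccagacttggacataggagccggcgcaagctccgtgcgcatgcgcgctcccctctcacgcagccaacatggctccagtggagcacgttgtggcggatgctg
SBDS: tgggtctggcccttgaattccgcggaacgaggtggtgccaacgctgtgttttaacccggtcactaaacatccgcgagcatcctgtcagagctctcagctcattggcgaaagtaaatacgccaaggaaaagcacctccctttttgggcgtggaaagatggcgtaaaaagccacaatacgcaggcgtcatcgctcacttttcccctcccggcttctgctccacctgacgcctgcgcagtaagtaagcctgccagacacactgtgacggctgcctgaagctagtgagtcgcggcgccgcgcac

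CACGTG, which reads the same on both strands, was found in the windows of 15 of the 33 members that have a window, 45.5%. Among other ribosome assembly genes it was in 30 of 84 (35.7%), among genes tested in MOLT4 in 13.1%, and among all genes with a window in 8.77%. The median GC content was 64.0% for members and 64.3% for genes tested in MOLT4. The 15 members with the element had a median log2 fold change of -1.46 with KI-CDK9d-32 in MOLT4 at 8 h, and the 18 without it -1.49. With KB-0742 these medians were 0.54 and 1.01. Both ranges overlapped widely: the members with the element ran from -2.39 to 0.96 with KI-CDK9d-32, and RRP9, which fell, and FBL, which was higher in TMM and lower with spike-in scaling, both carry it close to the start. The difference between these members was not tested.

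Members that share a complex were set side by side, chosen with their values already known. Subunits of the same complex were all lower with KI-CDK9d-32 in MOLT4 in the first 2 cases and mixed with KB-0742. PES1, BOP1 and WDR12, which form the PeBoW complex needed for large-subunit rRNA processing, had log2 fold changes of -1.76 ± 0.18, -0.94 ± 0.24 and -1.81 ± 0.20 at 8 h with KI-CDK9d-32, all called. With KB-0742, of these 3 only WDR12 was called, at 0.68 ± 0.16 (adjusted p = 0.000379, -0.65 with spike-in scaling). PES1 and BOP1 were at 0.33 ± 0.15 (adjusted p = 0.0557) and -0.41 ± 0.21 (adjusted p = 0.11). UTP4, UTP15, WDR43 and WDR75, subunits of the processome that bind the nascent precursor, were at -0.76 ± 0.18, -1.98 ± 0.42, -2.32 ± 0.23 and -2.09 ± 0.43 with KI-CDK9d-32 at 8 h, all called. With KB-0742 WDR43 was higher in TMM (2.05 ± 0.17, adjusted p = 9.02e-15) and not called with spike-in scaling, at 0.715. UTP15 was also higher in TMM (0.76 ± 0.32, adjusted p = 0.0476, -0.56 with spike-in scaling). The call of UTP15 was lost without any 1 of 6 libraries, with an adjusted p of up to 0.144. WDR75 fell with KB-0742 (-0.87 ± 0.37, adjusted p = 0.0456), and UTP4 was at 0.03 ± 0.17 (adjusted p = 0.89). Without any 1 KB-0742 library or any 1 DMSO library, WDR75 did not pass, with an adjusted p of up to 0.105. The core box C/D proteins NOP56 and NOP58 fell with KI-CDK9d-32, at -0.96 ± 0.09 (adjusted p = 8.56e-13) and -0.62 ± 0.13 (adjusted p = 0.000126), while their partner FBL was higher in TMM and lower with spike-in scaling. NCL (nucleolin, an abundant rRNA-binding protein) was at -0.07 ± 0.09 (adjusted p = 0.533) and NPM1 at 0.23 ± 0.09 (adjusted p = 0.035, -2.60 with spike-in scaling). NPM1 lost its call without KI-CDK9d-32 replicate 3 or DMSO replicate 1 or 4, with an adjusted p of up to 0.164. GRWD1 and NOP16, both large-subunit assembly factors, had -3.62 ± 0.22 (adjusted p = 1.38e-19) and -2.71 ± 0.17 (adjusted p = 3.07e-19).

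At 4 h with KI-CDK9d-32 in MOLT4 the largest falls were in MPHOSPH10, a scaffold of the processome, at 3.62 ± 1.27 CPM against 20.0 ± 3.19 CPM with DMSO (SD, n = 4 and 3), in NOP16, at 33.0 ± 9.37 against 158 ± 10.7 CPM, and in PPRC1, at 8.10 ± 4.02 against 36.7 ± 6.16 CPM. Their log2 fold changes were -2.50 ± 0.30 (adjusted p = 2.23e-09), -2.27 ± 0.16 (adjusted p = 8.6e-16) and -2.21 ± 0.30 (adjusted p = 1.08e-07). FBL (0.69 ± 0.10, adjusted p = 3.05e-07, -0.25 with spike-in scaling), DDX21 (0.49 ± 0.14, adjusted p = 0.00526, -0.51 with spike-in scaling) and NOLC1, a chaperone of snoRNPs (0.30 ± 0.11, adjusted p = 0.0354, -0.67 with spike-in scaling), were the highest calls. The call of NOLC1 was lost without KI-CDK9d-32 replicate 1 or 2 or DMSO replicate 1 or 4, with an adjusted p of up to 0.164. The effect at 8 h was below that at 4 h for 13 members and above it for 0 by edgeR, with 1 at an unadjusted p under 0.05 and 1 by DESeq2, and the median difference was -0.50. Across the tested genes 7.36% were lower and 5.15% higher. With spike-in scaling 33 were lower and 0 higher, also at an unadjusted p under 0.05, against 45.4% and 0.0686% of all tested genes. SBDS (-2.22 ± 0.63, adjusted p = 0.0112), RRP9 (-2.16 ± 0.37, adjusted p = 8.75e-05) and IMP4, another processome protein (-1.70 ± 0.26, adjusted p = 4.04e-06), fell further between these times, over which MYC moved up in TMM and not with spike-in scaling.

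With KB-0742 the same genes in MOLT4 were mixed at 2 h and mostly above DMSO by 8 h relative to other genes. At 2 h 11 of 42 were lower and 6 higher (median -0.07). Of all tested genes, 12.9% were lower and 13.2% higher. With spike-in scaling 13 were lower, against 19.6% of all tested genes, and the median was -0.898. At 4 h 8 of 42 were lower and 16 higher (median 0.25). Over all tested genes the shares were 17.7% lower and 18.1% higher. With spike-in scaling 20 were lower and 0 higher, against 50.5% and 0.446% of all tested genes, and the median was -1.06. At 8 h 2 of 42 were lower and 29 higher (median 0.75). The background over all genes tested was 25.8% lower and 23.4% higher. The lower count of 2 was 1 without KB-0742 replicate 1 or 2 or DMSO replicate 1, 3 or 4. The rise was not called with spike-in scaling, under which 10 members were called lower and 0 higher at 8 h. Of all tested genes 54.3% were lower and 0.609% higher under it. The median was -0.57 for members and -1.41 for all genes. In TMM the rise covered 3 of the 5 snoRNP proteins, 9 of the 14 small-subunit factors and 11 of the 16 large-subunit factors. It also covered 5 of the 5 scaffold and chaperone proteins and 1 of the 2 members grouped as regulators. At 8 h WDR43 had 204 ± 8.06 CPM with KB-0742 and 49.2 ± 5.25 CPM with DMSO, BRIX1 (a large-subunit factor) had 108 ± 3.33 and 29.1 ± 3.24 CPM, and BYSL (bystin, in small-subunit assembly) had 219 ± 37.0 and 60.4 ± 4.80 CPM (SD, n = 4 each). Their log2 fold changes were 2.05 ± 0.17 (adjusted p = 9.02e-15), 1.89 ± 0.17 (adjusted p = 5.09e-13) and 1.86 ± 0.14 (adjusted p = 8.5e-16), with no overlap between groups. NOC2L, a large-subunit transport factor, fell (-0.90 ± 0.16, adjusted p = 7.68e-06). The log2 fold changes of the best known nucleolar proteins were NCL 0.64 ± 0.09 (-0.69 with spike-in scaling), NPM1 0.68 ± 0.09 (-0.62 with spike-in scaling), FBL 0.70 ± 0.09 (-0.63 with spike-in scaling) and NOP56 1.02 ± 0.09 (-0.29 with spike-in scaling).

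At 4 h with KB-0742 in MOLT4, MYC was above DMSO in TMM, and members moved both ways. NOC3L, a large-subunit factor, had 2.43 ± 1.54 CPM with KB-0742 and 11.1 ± 1.07 CPM with DMSO (-2.27 ± 0.50, adjusted p = 0.000274), WDR75 3.84 ± 1.26 and 13.9 ± 1.13 CPM (-1.88 ± 0.43, adjusted p = 0.000474) and GNL3 (nucleostemin, a nucleolar GTPase) 24.9 ± 4.04 and 75.3 ± 9.44 CPM (-1.59 ± 0.21, adjusted p = 3.61e-08). PPAN (1.98 ± 0.65, adjusted p = 0.0178), PPRC1 (1.27 ± 0.24, adjusted p = 5.13e-05, -0.07 with spike-in scaling) and WDR43 (1.03 ± 0.18, adjusted p = 9.73e-06, -0.33 with spike-in scaling) were the highest calls. Without DMSO replicate 3, PPAN did not pass, with an adjusted p of up to 0.0712. PPAN shares exons with the PPAN-P2RY11 readthrough gene, so its counts are uncertain. The effect at 8 h was above that at 4 h for 21 members and below it for 1, with a median difference of 0.71. Among all genes tested 9.95% were lower and 7.8% higher. Scaled by spike-ins, edgeR called 0 members higher, with 5 at an unadjusted p under 0.05, and 0 lower, with 0 unadjusted, against 0.0% of all tested genes in either direction. The median was 0.72 under that scaling. PUS1, a pseudouridine synthase (2.13 ± 0.51, adjusted p = 0.00198), GNL3 (2.03 ± 0.28, adjusted p = 4.53e-07) and UTP20 (1.68 ± 0.54, adjusted p = 0.0233) gained most in TMM, and NOC2L was the member below (-0.84 ± 0.23, adjusted p = 0.00776). UTP20 lost its call without KB-0742 4 h replicate 2 or 3 or KB-0742 8 h replicate 4 or DMSO 8 h replicate 3, with an adjusted p of up to 0.0691. Over the same interval MYC moved the other way, by -1.05 ± 0.21 (adjusted p = 0.000164).

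Set directly against each other in MOLT4, more members differed between the compounds at 8 h than at 2 and 4 h. With KI-CDK9d-32 against KB-0742 7 of 42 were lower and 5 higher at 2 h (median -0.09). The shares of all tested genes were 10.1% lower and 8.2% higher. The count higher was 0 to 3 when any 1 library was left out, 0 being without KB-0742 replicate 1. With spike-in scaling edgeR called 0 lower and 0 higher, with 2 and 5 at an unadjusted p under 0.05, against 0.763% and 3.4% of all tested genes, and the median was 0.33. At 4 h 24 of 42 were lower and 3 higher (median -0.40). Across the tested genes 21.1% were lower and 14.6% higher. With spike-in scaling 10 were lower and 1 higher, against 6.38% and 7.67% of all tested genes. At 8 h 36 of 42 were lower and 1 higher (median -2.16). Of all tested genes, 29.6% were lower and 28.9% higher. With spike-in scaling at 8 h 42 members were lower and 0 higher, against 54.8% and 2.35% of all tested genes. SBDS (-5.50 ± 0.42, adjusted p = 6.62e-16), GRWD1 (-4.87 ± 0.21, adjusted p = 3.36e-24) and WDR43 (-4.38 ± 0.22, adjusted p = 1.52e-22) differed most at 8 h, and NOC2L was the member above (0.47 ± 0.17, adjusted p = 0.0154, -1.02 with spike-in scaling). The call of NOC2L was lost without KB-0742 replicate 1, with an adjusted p of up to 0.143. MYC was lower with KI-CDK9d-32 than with KB-0742 at 2, 4 and 8 h, at -2.89 ± 0.15, -3.78 ± 0.17 and -1.87 ± 0.16.

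At 4 h PPRC1 had 8.10 ± 4.02 CPM with KI-CDK9d-32 and 89.4 ± 28.6 CPM with KB-0742 (-3.48 ± 0.28, adjusted p = 1.78e-13). RRS1, a large-subunit factor, had 7.47 ± 1.42 and 64.0 ± 14.4 CPM (-3.07 ± 0.21, adjusted p = 8.32e-17), and PPAN was at -3.08 ± 0.69 (adjusted p = 0.000785). PUS1 (1.47 ± 0.39, adjusted p = 0.00249), RRP9 (0.78 ± 0.25, adjusted p = 0.0133) and GNL3 (0.54 ± 0.22, adjusted p = 0.0481) were higher with the degrader than with the inhibitor at 4 h. With spike-in scaling RRP9 and GNL3 were not called, at 1.15 and 0.89. Without any 1 KI-CDK9d-32 library or KB-0742 replicate 1, 2 or 4, GNL3 did not pass, with an adjusted p of up to 0.124. At 2 h PPRC1 (-1.55 ± 0.24, adjusted p = 7.75e-06), RRS1 (-0.80 ± 0.18, adjusted p = 0.000778) and NCL (-0.44 ± 0.09, adjusted p = 0.000252) were lower with KI-CDK9d-32. WDR75 (1.26 ± 0.39, adjusted p = 0.0163), NOC3L (1.21 ± 0.42, adjusted p = 0.036) and PUS1 (1.11 ± 0.34, adjusted p = 0.0152) were higher. WDR75 lost its call without KI-CDK9d-32 replicate 1 or KB-0742 replicate 1 or 2, with an adjusted p of up to 0.102. The call of NOC3L was lost without KI-CDK9d-32 replicate 1, 2 or 3 or KB-0742 replicate 1, 3 or 4, with an adjusted p of up to 0.131. Without KI-CDK9d-32 replicate 1 or KB-0742 replicate 1 or 4, PUS1 did not pass, with an adjusted p of up to 0.0776. None of these 6 was called with spike-in scaling at 2 h.

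**Figure D4:**
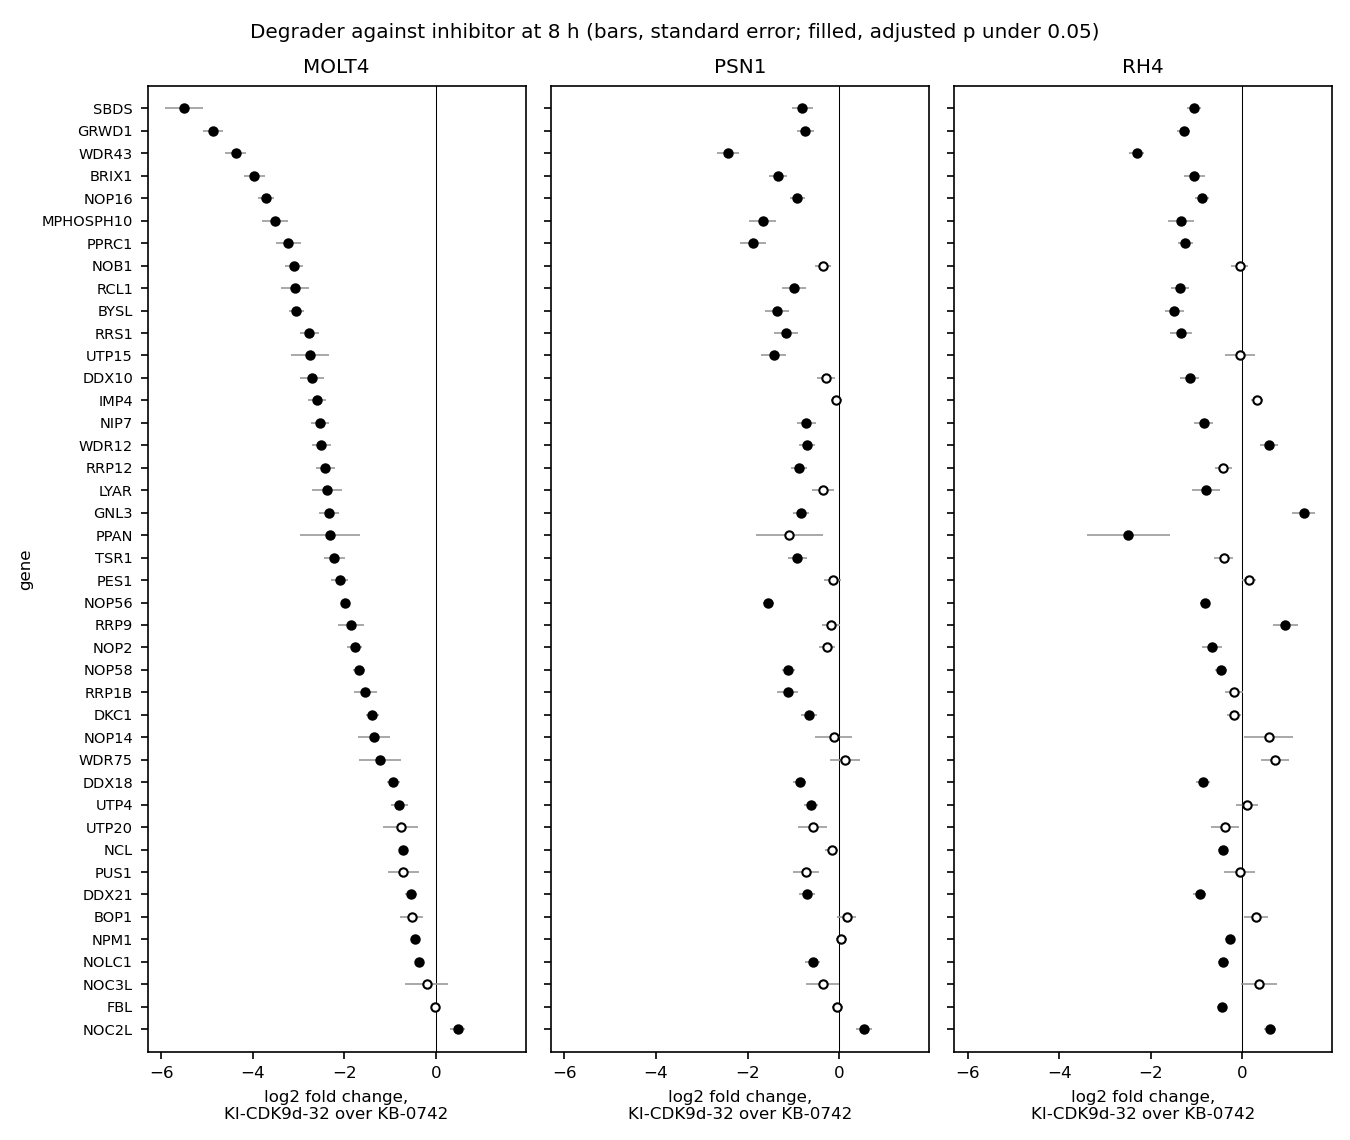
Log2 fold change of each member with KI-CDK9d-32 against KB-0742 at 8 h in MOLT4, PSN1 and RH4 (TMM scaling, ± SE), with filled points for an adjusted p under 0.05. In MOLT4, PSN1 and RH4, 36, 24 and 23 of 42 members are lower and 1, 1 and 4 higher. Of all tested genes 29.6%, 12.8% and 19.3% are lower and 28.9%, 12.0% and 19.1% higher. With spike-in scaling 42, 12 and 1 members are lower and 0, 0 and 8 higher. Under it 54.8%, 7.08% and 2.99% of all tested genes are lower and 2.35%, 5.16% and 36.6% higher.

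In PSN1 the degrader was followed by lower levels of some members at 8 h and the inhibitor by higher levels of others, relative to the other genes. At 4 h with KI-CDK9d-32 4 of 42 were lower and 0 higher (median -0.15). Over all tested genes the shares were 3.74% lower and 3.62% higher. With spike-in scaling 12 were lower, against 12.5% of all tested genes. The count higher was 2 at an unadjusted p under 0.05 and 0 by DESeq2. The count lower was 8 by DESeq2, 2 without KI-CDK9d-32 replicate 1 and 1 without replicate 3. At 8 h 13 of 42 were lower and 2 higher (median -0.41). The background over all genes tested was 9.61% lower and 11.0% higher. The count higher was 1 without KI-CDK9d-32 replicate 3 and 4 without DMSO replicate 1. The count lower was 8 without KI-CDK9d-32 replicate 4, the library with the highest spike-in share of its group, 20.1%. With spike-in scaling 36 were lower at 8 h, against 51.2% of all tested genes. The members lower in TMM were 6 small-subunit and 6 large-subunit factors and 1 snoRNP protein. DDX10, an RNA helicase of the small-subunit pathway, had 51.1, 57.2, 56.7 and 42.9 CPM with KI-CDK9d-32 and 105, 129.7, 147 and 164 CPM with DMSO, without overlap (-1.39 ± 0.19, adjusted p = 1.77e-06). NOP16 had 126, 113, 76.6 and 85.2 CPM with KI-CDK9d-32 and 271, 253, 208 and 183 CPM with DMSO, also without overlap (-1.18 ± 0.16, adjusted p = 5.55e-07). WDR43 was at -0.999 ± 0.24 (adjusted p = 0.00293), with groups that overlapped. NOC2L (0.88 ± 0.18, adjusted p = 0.000387, -0.07 with spike-in scaling) and FBL (0.46 ± 0.12, adjusted p = 0.00543, -0.49 with spike-in scaling) were higher. FBL lost its call without KI-CDK9d-32 replicate 3, with an adjusted p of up to 0.0944. NOP56 fell (-0.58 ± 0.11, adjusted p = 0.000196), and NCL and NPM1 were at 0.08 ± 0.14 (adjusted p = 0.73) and 0.20 ± 0.12 (adjusted p = 0.256).

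With KI-CDK9d-32 at 4 h in PSN1, RRS1 (-0.82 ± 0.26, adjusted p = 0.0415), NOP2, an rRNA methyltransferase (-0.81 ± 0.17, adjusted p = 0.00207), and NOP16 (-0.60 ± 0.15, adjusted p = 0.0107) were lower. The call of RRS1 was lost without KI-CDK9d-32 replicate 1, 3 or 4 or DMSO replicate 1, 2 or 4, with an adjusted p of up to 0.135. Without KI-CDK9d-32 replicate 3, NOP16 did not pass, with an adjusted p of up to 0.0761. With KB-0742 at 4 h 5 of 42 were lower and 9 higher (median 0.12). Among all genes tested 12.6% were lower and 11.3% higher. With spike-in scaling 17 were lower and 0 higher, against 42.3% of all tested genes lower, and the median was -0.75. 5 were higher without DMSO replicate 4. 2 were lower without DMSO replicate 1 and 3 without DMSO replicate 2 or KB-0742 replicate 1 or 4. PUS1 (-1.23 ± 0.29, adjusted p = 0.00186), GNL3 (-0.83 ± 0.17, adjusted p = 0.000319) and RRS1 (-0.71 ± 0.26, adjusted p = 0.0432) were lower. RRS1 lost its call without KB-0742 replicate 1, 2 or 4 or DMSO replicate 1, 2 or 4, with an adjusted p of up to 0.132. DDX21 (1.12 ± 0.17, adjusted p = 7.39e-06), WDR43 (1.00 ± 0.23, adjusted p = 0.00145) and NOLC1 (0.68 ± 0.15, adjusted p = 0.00108, -0.17 with spike-in scaling) were higher in TMM. With spike-in scaling DDX21 and WDR43 were not called, at 0.28 and 0.10. At 8 h with KB-0742 2 of 42 were lower and 16 higher (median 0.34). The shares of all tested genes were 15.1% lower and 15.1% higher. With spike-in scaling 10 were lower, against 46.8% of all tested genes, and 0 higher. PPRC1 had 98.8, 101, 64.5 and 83.7 CPM with KB-0742 and 16.1, 38.6, 32.5 and 38.5 CPM with DMSO, with no overlap (1.46 ± 0.28, adjusted p = 0.000123). WDR43 (1.43 ± 0.23, adjusted p = 1.42e-05) and DDX21 (1.12 ± 0.17, adjusted p = 3.82e-06) were also higher, and WDR75 (-1.12 ± 0.30, adjusted p = 0.00451) and DDX10 (-1.11 ± 0.19, adjusted p = 2.59e-05) were the 2 lower. FBL and NOP56 were at 0.49 ± 0.12 (adjusted p = 0.00176, -0.41 with spike-in scaling) and 0.96 ± 0.11 (adjusted p = 1.95e-08), and NCL and NPM1 at 0.24 ± 0.14 (adjusted p = 0.179) and 0.15 ± 0.12 (adjusted p = 0.363).

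Between compounds in PSN1, 9 of 42 were lower and 0 higher with KI-CDK9d-32 than with KB-0742 at 4 h (median -0.20). Across the tested genes 7.47% were lower and 9.97% higher. With spike-in scaling 2 were lower and 0 higher, with 1 higher at an unadjusted p under 0.05, against 1.82% and 8.75% of all tested genes, and the median was 0.0565. The count higher was 1 at an unadjusted p under 0.05 and 0 by DESeq2, and the count lower was 5 without KI-CDK9d-32 replicate 4. WDR43 (-1.42 ± 0.23, adjusted p = 3.21e-05), PPRC1 (-1.37 ± 0.29, adjusted p = 0.000734) and DDX21 (-0.87 ± 0.17, adjusted p = 0.000254) differed most at 4 h. DDX21 was not called with spike-in scaling, at -0.67. At 8 h 24 of 42 were lower and 1 higher (median -0.71). Of all tested genes, 12.8% were lower and 12.0% higher. With spike-in scaling 12 were lower, against 7.08%. WDR43 had 34.9, 40.1, 27.6 and 39.4 CPM with KI-CDK9d-32 and 217, 191, 173 and 184 CPM with KB-0742, with no overlap (-2.42 ± 0.24, adjusted p = 4.42e-09). PPRC1 (-1.87 ± 0.29, adjusted p = 7.22e-06) and MPHOSPH10 (-1.67 ± 0.30, adjusted p = 3.48e-05) were lower and NOC2L higher (0.54 ± 0.18, adjusted p = 0.0228). The call of NOC2L was lost without KI-CDK9d-32 replicate 2 or KB-0742 replicate 1, 3 or 4, with an adjusted p of up to 0.207, and with spike-in scaling. MYC was lower with KI-CDK9d-32 than with KB-0742 at 4 h (-0.82 ± 0.14, adjusted p = 2.24e-05) and 8 h (-0.56 ± 0.14, adjusted p = 0.00178). Neither MYC difference was called with spike-in scaling, at -0.58 and -0.68. The effect of KI-CDK9d-32 at 8 h against 4 h was called for 0 members in either direction by edgeR, with 4 at an unadjusted p under 0.05 and 0 by DESeq2 lower and 3 at an unadjusted p under 0.05 and 0 by DESeq2 higher. Over all tested genes the shares were 0.00802% lower and 0.00802% higher. For KB-0742 0 were lower (1 at an unadjusted p under 0.05 and 0 by DESeq2) and 2 higher, UTP15 (1.32 ± 0.37, adjusted p = 0.0486) and NOP56 (0.65 ± 0.16, adjusted p = 0.0205). Without KB-0742 4 h replicate 1, 2 or 3 or KB-0742 8 h replicate 1, 2 or 3 or any 1 DMSO 4 h library or DMSO 8 h replicate 2, 3 or 4, UTP15 did not pass, with an adjusted p of up to 0.106. NOP56 lost its call without KB-0742 4 h replicate 4 or KB-0742 8 h replicate 2 or DMSO 4 h replicate 1 or 2 or DMSO 8 h replicate 3, with an adjusted p of up to 0.0665. The background over all genes tested was 0.577% lower and 1.31% higher. That count of 2 was 5 by DESeq2. It was 0 without DMSO replicate 1 or 2 at 4 h, DMSO replicate 3 at 8 h or KB-0742 replicate 2 at 8 h. The count was 1 without DMSO replicate 3 or 4 at 4 h, DMSO replicate 4 at 8 h, KB-0742 replicate 1, 2 or 4 at 4 h or KB-0742 replicate 3 at 8 h, and 4 without KB-0742 replicate 4 at 8 h. With spike-in scaling it was 0 by edgeR, with 3 at an unadjusted p under 0.05.

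In RH4 with the degrader 12 members were called at 8 h in TMM, 9 lower and 3 higher, and 34 were lower with spike-in scaling. With the inhibitor GNL3, WDR75 and NOC3L were low while 21 members were called above DMSO at 8 h in TMM. None was called above it with spike-in scaling. At 4 h with KI-CDK9d-32 3 of 42 were lower and 1 higher (median -0.10). Among all genes tested 1.89% were lower and 3.47% higher. Scaled by spike-ins, edgeR called 0 lower, with 13 at an unadjusted p under 0.05, against 0.738% of all tested genes, and the median was -0.45. 1 was lower without KI-CDK9d-32 replicate 1. BRIX1 (-0.80 ± 0.22, adjusted p = 0.024), RCL1, a processome protein (-0.76 ± 0.19, adjusted p = 0.0116), and NOP16 (-0.68 ± 0.14, adjusted p = 0.0035) were lower and FBL higher (0.33 ± 0.10, adjusted p = 0.0355, -0.03 with spike-in scaling). The call of BRIX1 was lost without KI-CDK9d-32 replicate 1 or 4 or DMSO replicate 3 or 4, with an adjusted p of up to 0.087. Without KI-CDK9d-32 replicate 1, RCL1 did not pass, with an adjusted p of up to 0.0632. FBL lost its call without KI-CDK9d-32 replicate 1, 3 or 4 or DMSO replicate 1 or 2, with an adjusted p of up to 0.154. At 8 h 9 of 42 were lower and 3 higher (median -0.19). The shares of all tested genes were 6.05% lower and 9.19% higher. 1 was higher without DMSO replicate 1 or 2. With spike-in scaling 34 were lower, against 51.6% of all tested genes. NOC3L (-1.11 ± 0.34, adjusted p = 0.0193), WDR75 (-1.09 ± 0.25, adjusted p = 0.00167) and RCL1 (-0.71 ± 0.19, adjusted p = 0.00744) were the largest falls. The call of NOC3L was lost without KI-CDK9d-32 replicate 2 or 3 or DMSO replicate 2 or 4, with an adjusted p of up to 0.0801. Without DMSO replicate 3, RCL1 did not pass, with an adjusted p of up to 0.0543. WDR75 had 9.45, 13.8, 9.02 and 7.48 CPM with KI-CDK9d-32, 6.64, 8.92, 2.36 and 6.63 CPM with KB-0742 and 16.7, 22.3, 20.6 and 25.3 CPM with DMSO. Every treated library lay below DMSO. FBL (0.48 ± 0.10, adjusted p = 0.000479, -0.42 with spike-in scaling), NOLC1 (0.43 ± 0.12, adjusted p = 0.00924, -0.47 with spike-in scaling) and NOC2L (0.38 ± 0.12, adjusted p = 0.0283, -0.51 with spike-in scaling) were higher. NOLC1 lost its call without DMSO replicate 1 or 2, with an adjusted p of up to 0.0586. The call of NOC2L was lost without KI-CDK9d-32 replicate 2, 3 or 4 or DMSO replicate 1 or 2, with an adjusted p of up to 0.092. NCL, NPM1 and NOP56 were at 0.05 ± 0.10 (adjusted p = 0.795), 0.05 ± 0.09 (adjusted p = 0.768) and -0.18 ± 0.11 (adjusted p = 0.287).

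With KB-0742 in RH4 at 4 h 8 of 42 were lower and 8 higher (median 0.02). Across the tested genes 16.3% were lower and 15.4% higher. 5 were higher without DMSO replicate 1. With spike-in scaling 32 were lower and 0 higher, against 61.9% of all tested genes lower, and the median was -1.03. GNL3 (-1.68 ± 0.22, adjusted p = 1.37e-07), NOC3L (-1.30 ± 0.38, adjusted p = 0.00677) and WDR75 (-1.26 ± 0.26, adjusted p = 0.000199) were lower. FBL (0.76 ± 0.10, adjusted p = 8.16e-08, -0.27 with spike-in scaling), DDX21 (0.65 ± 0.15, adjusted p = 0.000723, -0.41 with spike-in scaling) and WDR43 (0.60 ± 0.15, adjusted p = 0.00225, -0.43 with spike-in scaling) were higher. At 8 h 7 of 42 were lower and 21 higher (median 0.46). Of all tested genes, 22.9% were lower and 22.5% higher. With spike-in scaling 34 were lower and 0 higher, against 77.9% of all tested genes lower. GNL3 had 26.5, 31.6, 27.1 and 29.6 CPM with KI-CDK9d-32, 17.2, 10.2, 8.84 and 8.29 CPM with KB-0742 and 53.4, 44.6, 41.3 and 48.0 CPM with DMSO. The KB-0742 libraries lay below every other library and the KI-CDK9d-32 libraries between (-2.04 ± 0.24, adjusted p = 2.26e-09 against DMSO), and WDR75 and NOC3L were at -1.79 ± 0.29 (adjusted p = 1.75e-06) and -1.47 ± 0.37 (adjusted p = 0.00117). WDR43 (1.64 ± 0.15, adjusted p = 8.34e-12), BYSL (1.42 ± 0.21, adjusted p = 3.12e-07, -0.14 with spike-in scaling) and RRS1 (1.40 ± 0.24, adjusted p = 6.86e-06, -0.22 with spike-in scaling) were the highest calls. The log2 fold changes of the best known nucleolar proteins were NCL 0.48 ± 0.10 (-1.11 with spike-in scaling), NPM1 0.33 ± 0.09 (-1.27 with spike-in scaling), FBL 0.93 ± 0.10 (-0.65 with spike-in scaling) and NOP56 0.65 ± 0.11 (-0.96 with spike-in scaling).

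With KI-CDK9d-32 against KB-0742 in RH4, 9 of 42 were lower and 2 higher at 4 h (median -0.13). Over all tested genes the shares were 12.4% lower and 13.4% higher. With spike-in scaling edgeR called 0 lower, also at an unadjusted p under 0.05, and 13 higher, against 1.24% and 34.2% of all tested genes, and the median was 0.63. The count lower was 3 without KI-CDK9d-32 replicate 1 and 4 without KI-CDK9d-32 replicate 4 or KB-0742 replicate 4, and 5 without KB-0742 replicate 2. WDR43 (-1.04 ± 0.16, adjusted p = 2.6e-06), RCL1 (-0.64 ± 0.19, adjusted p = 0.0116, 0.10 with spike-in scaling) and PPRC1 (-0.59 ± 0.17, adjusted p = 0.0102, 0.10 with spike-in scaling) were lower, and GNL3 (1.42 ± 0.22, adjusted p = 6.41e-06) and WDR75 (1.03 ± 0.26, adjusted p = 0.00282) higher. Without KI-CDK9d-32 replicate 1, RCL1 did not pass, with an adjusted p of up to 0.0532. PPRC1 lost its call without KB-0742 replicate 4, with an adjusted p of up to 0.0714. WDR43 was not called with spike-in scaling, at -0.32. At 8 h 23 of 42 were lower and 4 higher (median -0.42). The background over all genes tested was 19.3% lower and 19.1% higher. With spike-in scaling 1 was lower and 8 were higher, against 2.99% and 36.6% of all tested genes, and the median was 0.26. WDR43 had 30.1, 35.6, 32.0 and 27.8 CPM with KI-CDK9d-32 and 137, 148, 159 and 181 CPM with KB-0742, without overlap (-2.31 ± 0.16, adjusted p = 1.03e-14). PPAN (-2.49 ± 0.91, adjusted p = 0.0339) and BYSL (-1.48 ± 0.21, adjusted p = 3.68e-07) were also lower, and GNL3 (1.34 ± 0.24, adjusted p = 2.81e-05), RRP9 (0.94 ± 0.27, adjusted p = 0.00667) and NOC2L (0.61 ± 0.13, adjusted p = 0.000203) higher. The call of PPAN was lost without KI-CDK9d-32 replicate 1, 2 or 4 or KB-0742 replicate 3 or 4, with an adjusted p of up to 0.0987. With spike-in scaling PPAN and BYSL were not called, at -1.78 and -0.77. MYC was lower with KI-CDK9d-32 than with KB-0742 at 4 h (-1.25 ± 0.25, adjusted p = 0.00018) and at -0.58 ± 0.25 (adjusted p = 0.0609) at 8 h, where MYCN was lower (-1.68 ± 0.59, adjusted p = 0.0214). Without KI-CDK9d-32 replicate 1 or 2 or KB-0742 replicate 3 or 4, MYCN did not pass, with an adjusted p of up to 0.118. With spike-in scaling neither the MYC difference at 4 h nor the MYCN difference at 8 h was called, at -0.50 and -0.99. The effect of KI-CDK9d-32 at 8 h against 4 h was called for 0 members in either direction by edgeR, with 3 at an unadjusted p under 0.05 and 0 by DESeq2 lower and 0 at an unadjusted p under 0.05 and 0 by DESeq2 higher. Among all genes tested 0.0% were lower and 0.0% higher. For KB-0742 1 was lower and 11 higher (median 0.41). The shares of all tested genes were 4.11% lower and 4.4% higher. The count higher was 7 without DMSO replicate 4 at 4 h and without DMSO replicate 1 or 2 at 8 h, and 0 by edgeR with spike-in scaling, also at an unadjusted p under 0.05. BRIX1 (1.29 ± 0.32, adjusted p = 0.00741), NOP16 (1.16 ± 0.21, adjusted p = 0.000345) and NIP7, a large-subunit factor (1.12 ± 0.29, adjusted p = 0.0113), gained most in TMM and NOC2L was lower (-0.55 ± 0.18, adjusted p = 0.0438). NOC2L lost its call without KB-0742 4 h replicate 2, 3 or 4 or KB-0742 8 h replicate 1 or 2 or DMSO 4 h replicate 1, 3 or 4 or DMSO 8 h replicate 2, 3 or 4, with an adjusted p of up to 0.113.

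The degrader's effect on the members at 8 h differed between MOLT4 and the other lines in a single model over the 3 lines. The effect in MOLT4 minus that in PSN1 was lower for 20 members and higher for 2 (median -0.96). Across the tested genes 10.3% were lower and 7.35% higher. With spike-in scaling 40 were lower and 0 higher, also at an unadjusted p under 0.05, against 49.1% and 0.63% of all tested genes. Against RH4 it was lower for 27 and higher for 1 (median -1.10). Of all tested genes, 10.2% were lower and 6.5% higher. With spike-in scaling 41 were lower and 0 higher, also at an unadjusted p under 0.05, against 53.4% and 0.516% of all tested genes. By DESeq2 the count higher was 3. SBDS, GRWD1 and IMP4 differed most in both, at -3.06 ± 0.50 (adjusted p = 1.14e-06), -2.94 ± 0.30 (adjusted p = 5.62e-13) and -2.37 ± 0.23 (adjusted p = 9.65e-14) against PSN1 and -3.50 ± 0.48 (adjusted p = 1.72e-08), -2.94 ± 0.31 (adjusted p = 1.21e-12) and -2.21 ± 0.24 (adjusted p = 3.15e-12) against RH4. DDX21 was higher in MOLT4 against PSN1 (0.61 ± 0.21, adjusted p = 0.0291, -1.34 with spike-in scaling) and against RH4 (0.63 ± 0.21, adjusted p = 0.0217, -1.36 with spike-in scaling), and NOLC1 against PSN1 (0.49 ± 0.18, adjusted p = 0.0484, -1.44 with spike-in scaling). The call of DDX21 in MOLT4 against PSN1 was lost without MOLT4 KI-CDK9d-32 8 h replicate 3, with an adjusted p of up to 0.094. Without MOLT4 KI-CDK9d-32 8 h replicate 3, DDX21 in MOLT4 against RH4 did not pass, with an adjusted p of up to 0.0509. NOLC1 in MOLT4 against PSN1 lost its call without MOLT4 KI-CDK9d-32 8 h replicate 3 or PSN1 KI-CDK9d-32 8 h replicate 4, with an adjusted p of up to 0.137. Between PSN1 and RH4, 0 members were called in either direction by edgeR, with 5 at an unadjusted p under 0.05 and 0 by DESeq2 lower and 2 at an unadjusted p under 0.05 and 0 by DESeq2 higher. Over all tested genes the shares were 0.246% lower and 0.327% higher. Scaled by spike-ins, edgeR called 0 in either direction, also at an unadjusted p under 0.05, against 0.0189% and 0.0441% of all tested genes. For MYC the effect in MOLT4 was lower than in PSN1 (-1.59 ± 0.24, adjusted p = 2.46e-07) and RH4 (-1.63 ± 0.27, adjusted p = 2.26e-06), and PSN1 minus RH4 was at -0.04 ± 0.26 (adjusted p = 1).

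For KB-0742 most of the members called in TMM at 8 h were higher in MOLT4 than in the other lines. Most of these calls did not hold with spike-in scaling. Under it 1 member was higher and 0 lower in each of the 3 comparisons between lines, with medians of -0.0756 for MOLT4 minus PSN1, 0.71 for MOLT4 minus RH4 and 0.79 for PSN1 minus RH4. At an unadjusted p under 0.05 the spike-in counts lower were 2, 0 and 0. The effect in MOLT4 minus that in PSN1 was lower for 2 members, NOC2L (-1.32 ± 0.25, adjusted p = 4.16e-05) and RRP1B (-0.97 ± 0.30, adjusted p = 0.0205), and higher for 9, led by DDX10 (2.20 ± 0.28, adjusted p = 2.35e-09), SBDS (1.48 ± 0.30, adjusted p = 0.00013) and BRIX1 (1.23 ± 0.25, adjusted p = 0.000142). The call of RRP1B in MOLT4 against PSN1 was lost without MOLT4 KB-0742 8 h replicate 1, with an adjusted p of up to 0.118. The background over all genes tested was 7.98% lower and 4.36% higher, and 1.97% and 0.145% with spike-in scaling. Without PSN1 KB-0742 8 h replicate 4 the count lower was 4. Against RH4 it was lower for 0 by edgeR (1 at an unadjusted p under 0.05 and 1 by DESeq2) and higher for 7, led by GNL3 (2.46 ± 0.30, adjusted p = 1.36e-09), WDR12 (1.44 ± 0.25, adjusted p = 9.69e-06) and BRIX1 (1.28 ± 0.26, adjusted p = 0.000229). Among all genes tested 5.6% were lower and 3.77% higher, and 0.384% and 0.321% with spike-in scaling. PSN1 minus RH4 was lower for 2, DDX10 (-1.54 ± 0.28, adjusted p = 7.34e-05) and NOP2 (-0.81 ± 0.26, adjusted p = 0.041), and higher for 7, led by GNL3 (2.07 ± 0.30, adjusted p = 6.08e-07), RRP9 (1.33 ± 0.37, adjusted p = 0.0139) and RRP1B (1.23 ± 0.31, adjusted p = 0.00572). With spike-in scaling, of the members named here DDX10 alone was called in MOLT4 against PSN1 and GNL3 alone in the comparisons with RH4. Without PSN1 KB-0742 8 h replicate 4 or RH4 KB-0742 8 h replicate 1, NOP2 in PSN1 against RH4 did not pass, with an adjusted p of up to 0.0842. By DESeq2 7 were lower and 7 higher, so the direction of the calls in PSN1 against RH4 depended on the test. The shares of all tested genes were 3.46% lower and 4.34% higher, and 0.12% and 1.45% with spike-in scaling. MYC did not pass the test in any of these, at -0.43 ± 0.23 (adjusted p = 0.234), -0.40 ± 0.26 (adjusted p = 0.405) and 0.03 ± 0.26 (adjusted p = 1).

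With spike-in scaling MOLT4 showed a fall in all 42 members with the degrader, with a lower median than that of all genes. At 8 h with KI-CDK9d-32 42 of 42 members were lower, against 91.0% of all tested genes, with a median of -4.20 for members and -2.99 for all genes. With KB-0742 in MOLT4 at 8 h 10 were lower, against 54.3%, with medians of -0.57 and -1.41. In PSN1 at 8 h the medians of members and all genes were -1.38 and -1.01 with KI-CDK9d-32 and -0.54 and -0.94 with KB-0742. In RH4 at 8 h they were -1.08 and -0.92 with KI-CDK9d-32 and -1.13 and -1.66 with KB-0742. A change of scaling shifts all genes of a library alike. The distance of the members from all genes therefore stays nearly the same by construction, and gives no separate support. With KI-CDK9d-32 in MOLT4 at 8 h the members lay -1.22 from the median of all genes in TMM and -1.21 with spike-in scaling. For KB-0742 in MOLT4 the distances were 0.85 and 0.85. Spike-in shares of treated and DMSO libraries moved with these values, and the part of cell number in them was not tested.

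**Figure D5:**
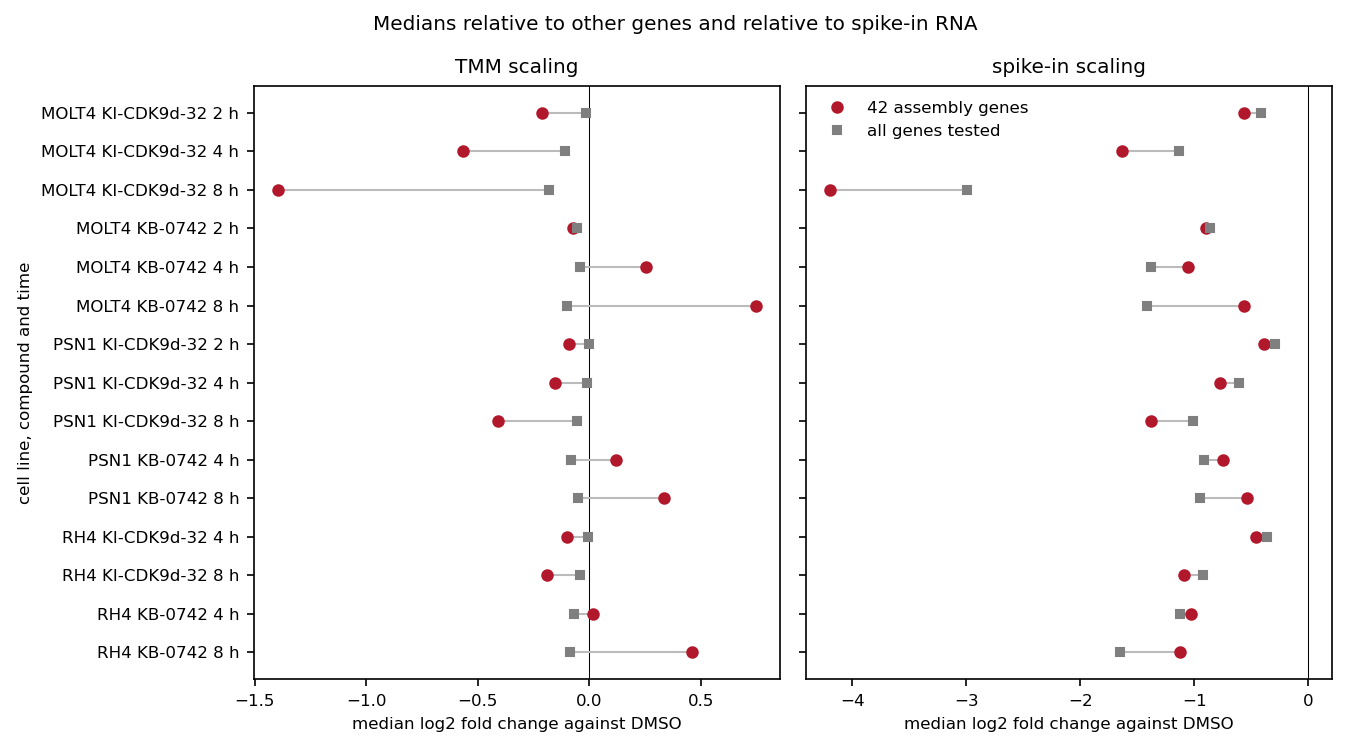
Median log2 fold change of the 42 members and of all tested genes for each compound against DMSO by line and time, with TMM scaling and with spike-in scaling. With KI-CDK9d-32 in MOLT4 at 8 h the members sit below all genes, at -1.40 against -0.18 in TMM and -4.20 against -2.99 with spike-ins. A scaling shifts all genes of a library alike, so the distance is nearly the same in both by construction. With KB-0742 the members sit at 0.75 in TMM and -0.57 with spike-ins.

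Other genes of the pathway moved in the same main direction in MOLT4, relative to the other genes. Of 94 other ribosome assembly genes, all tested, 71 were lower and 6 higher with KI-CDK9d-32 in MOLT4 at 8 h (median -1.18), against 28.7% and 20.8% of all tested genes. With KB-0742 9 were lower and 57 higher (median 0.66 in TMM, -0.69 with spike-in scaling), against 25.8% and 23.4%. With KI-CDK9d-32 the largest falls were in SENP3 (-4.68 ± 1.91, adjusted p = 0.0378), DDX31 (-3.73 ± 0.44, adjusted p = 3.81e-10) and RIOK1 (-3.50 ± 0.26, adjusted p = 1.77e-16), a SUMO protease, an RNA helicase and a kinase of assembly, and the largest rises in NHP2 (0.99 ± 0.09, adjusted p = 7.31e-14, -1.78 with spike-in scaling), FCF1 (0.58 ± 0.21, adjusted p = 0.0198, -2.26 with spike-in scaling) and NOP53 (0.56 ± 0.22, adjusted p = 0.0314, -2.19 with spike-in scaling), where NHP2 is a box H/ACA snoRNP protein. With KB-0742 the lowest were DIMT1 (-1.77 ± 0.26, adjusted p = 1.01e-07), LAS1L (-1.14 ± 0.14, adjusted p = 9.55e-10) and DCAF13 (-0.93 ± 0.16, adjusted p = 3.69e-06) and the highest DDX51 (2.11 ± 0.24, adjusted p = 2.33e-10), RRP36 (2.00 ± 0.33, adjusted p = 1.15e-06) and UTP25 (1.96 ± 0.32, adjusted p = 1.57e-06). With spike-in scaling DDX51 and RRP36 were not called, at 0.74 and 0.69. SENP3 had the largest error of the genes named here. Whether calls of these other genes held without single libraries is not given. At 4 h in MOLT4 46 of the 94 were lower and 7 higher with KI-CDK9d-32, against 18.9% and 13.6% of all tested genes. With KB-0742 19 were lower and 27 higher at 4 h, against 17.7% and 18.1%, so the lower count was near that of all genes. At 8 h in PSN1 22 were lower and 8 higher with KI-CDK9d-32, against 9.61% and 11.0%, and 7 lower and 32 higher with KB-0742, against 15.1% and 15.1%. In RH4 at 8 h the counts were 15 lower and 4 higher with KI-CDK9d-32, against 6.05% and 9.19%, and 12 lower and 34 higher with KB-0742, against 22.9% and 22.5%.

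The medians of short and long members differed little in some comparisons and more in others. The members' genes run from 1706 bases (RRS1) to 275906 bases (DDX10), with a median of 17534 bases. With KI-CDK9d-32 in MOLT4 at 8 h the 21 genes at or under the median length had a median log2 fold change of -1.34 and the 21 longer ones -1.46. At 4 h these medians were -0.93 for the shorter and -0.52 for the longer genes, and at 2 h -0.31 and -0.0962. In PSN1 with KI-CDK9d-32 at 8 h they were -0.57 and -0.27, and with KI-CDK9d-32 against KB-0742 in MOLT4 at 8 h -2.33 and -1.55. Over the 42 members, which share their libraries, Spearman's rho between the log2 fold change with KI-CDK9d-32 in MOLT4 and gene length was 0.31 at 2 h, 0.23 at 4 h and 0.14 at 8 h, and with the DMSO level in TPM it was 0.13 at 8 h, as descriptions of these genes. 8 members carry 27 snoRNA genes inside their own gene, among them NOP56, GNL3 and WDR43. Their median with KI-CDK9d-32 in MOLT4 at 8 h was -1.07, and -1.46 for the 34 others. The libraries do not record strand, so reads from genes that overlap 23 of the members, such as TYW1 with SBDS or RAD1 with BRIX1, could not be told apart. 11 members have named pseudogenes, 45 for NPM1 and at most 5 for the rest, whose reads the estimated counts may divide.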

How the data were processed

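RNA of 91 libraries of MOLT4, PSN1 and RH4 cells was prepared by an unstranded SMART-seq2 method without molecular identifiers, so reads are not independent molecules. For each line the authors deposited a table of estimated counts per gene, already whole numbers, and a table of log2(TPM + 1) values. The submitters' processing notes name Salmon and hg38, and the Salmon version and annotation are not given in the sources used here. The deposited log2 values were turned back into TPM here and rescaled over genes without the spike-ins. The 99 spike-in transcripts were kept apart for scaling, and 47 duplicate entries of the Y pseudoautosomal region were left out. Levels are CPM with TMM scaling, computed here from the deposited estimated counts. Log2 fold changes were computed here from the deposited counts.

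For each line 1 model held all its groups, and a model over the 91 libraries gave differences between lines. Genes passed filterByExpr at a minimum count of 10, which set aside 0.4374% of counts in MOLT4, 0.5839% in PSN1 and 0.6827% in RH4. Tests were edgeR 4.0.16 robust quasi-likelihood tests (R 4.3.3) with Benjamini-Hochberg adjustment over all tested genes, called at 0.05. The biological coefficient of variation was 0.2102 in MOLT4, 0.2517 in PSN1, 0.2175 in RH4 and 0.242 over all lines. The 34 comparisons were 15 with DMSO, 7 between compounds, 6 of effects between times and 6 of effects between lines. The procedure was tested on simulated data.

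Alternatives were DESeq2 size factors, spike-in scaling, no filter beyond 1 count, the DESeq2 1.42.0 test, the replicate number as a block, each library left out in turn, and a shorter promoter window of 150 bases before to 50 after the start. Promoter windows from RefSeq matched 33 of the 42 members. The members, role groups and lists were chosen with earlier results of these data known. Genes were named by size of change among called members: the largest fall and rise in each role in MOLT4 at 8 h with KI-CDK9d-32, up to 3 in each direction elsewhere, and always MYC, NCL, NPM1, FBL and NOP56. RH4 is the name in the sample labels. No library was left out.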

Additional observations from a re-analysis of the deposited data

Results flagged for a closer look

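PPRC1 in the MOLT4 DMSO group at 8 h had a low library, replicate 3, at 22.5 CPM, while the others lay at 38.3 to 39.5 CPM. The gap to the nearest library was 0.932 of the range of the group, and chance alone marks about 1 in 20 groups of this size. The member was still lower in every KI-CDK9d-32 library and higher in every KB-0742 library than in this one.

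The size of an effect differed between times or lines by a test of the difference itself for the following members, all in TMM scaling and described with their errors in the report. Between times, for the effect of KI-CDK9d-32 at 8 h minus that at 4 h in MOLT4, edgeR called 13 lower and 0 (1 at an unadjusted p under 0.05 and 1 by DESeq2) higher, with the log2 difference of SBDS at -2.22, RRP9 at -2.16 and IMP4 at -1.70. For the effect of KB-0742 at 8 h minus that at 4 h in MOLT4, edgeR called 1 lower and 21 higher, with the log2 difference of NOC2L at -0.84, PUS1 at 2.13, GNL3 at 2.03 and UTP20 at 1.68. For the effect of KB-0742 at 8 h minus that at 4 h in PSN1, edgeR called 0 (1 at an unadjusted p under 0.05 and 0 by DESeq2) lower and 2 higher, with the log2 difference of UTP15 at 1.32 and NOP56 at 0.65. For the effect of KB-0742 at 8 h minus that at 4 h in RH4, edgeR called 1 lower and 11 higher, with the log2 difference of NOC2L at -0.55, BRIX1 at 1.29, NOP16 at 1.16 and NIP7 at 1.12. In the order given, 7.36%, 9.95%, 0.577% and 4.11% of all tested genes were lower. The shares higher were 5.15%, 7.8%, 1.31% and 4.4%. The differences between times rest on 3 or 4 libraries a group.

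Between lines, the effect of KI-CDK9d-32 at 8 h in MOLT4 minus that in PSN1 was lower for 20 members and higher for 2 by edgeR, with SBDS at -3.06, GRWD1 at -2.94, IMP4 at -2.37, DDX21 at 0.61 and NOLC1 at 0.49. The effect of KI-CDK9d-32 at 8 h in MOLT4 minus that in RH4 was lower for 27 members and higher for 1 by edgeR, with SBDS at -3.50, GRWD1 at -2.94, IMP4 at -2.21 and DDX21 at 0.63. The effect of KB-0742 at 8 h in MOLT4 minus that in PSN1 was lower for 2 members and higher for 9 by edgeR, with NOC2L at -1.32, RRP1B at -0.97, DDX10 at 2.20, SBDS at 1.48 and BRIX1 at 1.23. The effect of KB-0742 at 8 h in MOLT4 minus that in RH4 was lower for 0 (1 at an unadjusted p under 0.05 and 1 by DESeq2) members and higher for 7 by edgeR, with GNL3 at 2.46, WDR12 at 1.44 and BRIX1 at 1.28. The effect of KB-0742 at 8 h in PSN1 minus that in RH4 was lower for 2 members and higher for 7 by edgeR, with DDX10 at -1.54, NOP2 at -0.81, GNL3 at 2.07, RRP9 at 1.33 and RRP1B at 1.23. In the order given, 10.3%, 10.2%, 7.98%, 5.6% and 3.46% of all tested genes were lower. The shares higher were 7.35%, 6.5%, 4.36%, 3.77% and 4.34%. With spike-in scaling all 42 members were lower with KI-CDK9d-32 than with DMSO at 8 h in MOLT4, against 91.0% of all tested genes.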

How the results depend on the processing

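With DESeq2 size factors the count of called members in the direction with more calls kept within 1.5 times of the reported count in all 34 comparisons. In the other direction 5 counts moved: 1 lower for KB-0742 against DMSO at 8 h in MOLT4, 1 higher for KI-CDK9d-32 at 8 h against 4 h in MOLT4, 2 higher for KI-CDK9d-32 and 1 lower for KB-0742 in MOLT4 against RH4, and 5 lower for KB-0742 in PSN1 against RH4. The scaling by spike-ins changed most of the others. With spike-in scaling, by edgeR and with the count at an unadjusted p under 0.05 in brackets after a 0, members called lower were 0 for KI-CDK9d-32 against DMSO at 2 h in MOLT4 (9 unadjusted), KI-CDK9d-32 against KB-0742 at 2 h in MOLT4 (2 unadjusted), KI-CDK9d-32 against DMSO at 4 h in RH4 (13 unadjusted) and KI-CDK9d-32 against KB-0742 at 4 h in RH4 (0 unadjusted), 10 for KI-CDK9d-32 against KB-0742 at 4 h in MOLT4, 33 for KI-CDK9d-32 at 8 h against 4 h in MOLT4, 12 for KI-CDK9d-32 against DMSO at 4 h in PSN1 and KI-CDK9d-32 against KB-0742 at 8 h in PSN1, 2 for KI-CDK9d-32 against KB-0742 at 4 h in PSN1, 36 for KI-CDK9d-32 against DMSO at 8 h in PSN1, 32 for KB-0742 against DMSO at 4 h in RH4, 34 for KI-CDK9d-32 against DMSO at 8 h in RH4, 1 for KI-CDK9d-32 against KB-0742 at 8 h in RH4, 40 for KI-CDK9d-32 in MOLT4 against PSN1 and 41 for KI-CDK9d-32 in MOLT4 against RH4. Members called higher were 0 for KB-0742 against DMSO at 4 h in MOLT4 (0 unadjusted), KB-0742 against DMSO at 8 h in MOLT4 (0 unadjusted), KB-0742 at 8 h against 4 h in MOLT4 (5 unadjusted), KB-0742 against DMSO at 4 h in PSN1 (0 unadjusted), KB-0742 against DMSO at 8 h in PSN1 (0 unadjusted), KB-0742 at 8 h against 4 h in PSN1 (3 unadjusted), KB-0742 against DMSO at 8 h in RH4 (0 unadjusted) and KB-0742 at 8 h against 4 h in RH4 (0 unadjusted) and 1 for KB-0742 in MOLT4 against PSN1, KB-0742 in MOLT4 against RH4 and KB-0742 in PSN1 against RH4. DESeq2 was not run with spike-in scaling. The median of the members moved in all 15 comparisons with DMSO. The signs of the following log2 fold changes turned round with spike-in scaling. In MOLT4 they were FBL -2.09, DDX21 -1.87 and NPM1 -2.60 for KI-CDK9d-32 against DMSO at 8 h, FBL -0.25, DDX21 -0.51 and NOLC1 -0.67 for KI-CDK9d-32 against DMSO at 4 h, PPRC1 -0.0656, WDR43 -0.33 and MYC -0.28 for KB-0742 against DMSO at 4 h, NOC2L -1.02 for KI-CDK9d-32 against KB-0742 at 8 h, NCL -0.69, NPM1 -0.62, FBL -0.63 and NOP56 -0.29 for KB-0742 against DMSO at 8 h and MYC -0.89 for KI-CDK9d-32 at 8 h against 4 h. In PSN1 they were NOLC1 -0.17 for KB-0742 against DMSO at 4 h, NOC2L -0.0746, FBL -0.49, NCL -0.84 and NPM1 -0.73 for KI-CDK9d-32 against DMSO at 8 h and NPM1 -0.71 and FBL -0.41 for KB-0742 against DMSO at 8 h. In RH4 they were FBL -0.0256 for KI-CDK9d-32 against DMSO at 4 h, FBL -0.27, DDX21 -0.41, WDR43 -0.43 and MYC -0.87 for KB-0742 against DMSO at 4 h, RCL1 0.10 and PPRC1 0.10 for KI-CDK9d-32 against KB-0742 at 4 h, FBL -0.42, NOLC1 -0.47, NOC2L -0.51, NCL -0.85 and NPM1 -0.85 for KI-CDK9d-32 against DMSO at 8 h and BYSL -0.14, RRS1 -0.22, NCL -1.11, NPM1 -1.27, FBL -0.65, NOP56 -0.96 and MYC -1.24 for KB-0742 against DMSO at 8 h. Between lines they were DDX21 -1.34 and NOLC1 -1.44 for KI-CDK9d-32 in MOLT4 against PSN1 and DDX21 -1.36 for KI-CDK9d-32 in MOLT4 against RH4. Of the 197 named values, 44 turned round and were called under either scaling. Another 91 kept their call or stayed uncalled, the uncalled ones with either sign. A call was lost by 55 and gained by 7. Without the filter on low counts members called lower were 4 for KI-CDK9d-32 against KB-0742 at 2 h in MOLT4, 5 for KB-0742 against DMSO at 4 h in RH4 and 3 for KI-CDK9d-32 against KB-0742 at 4 h in RH4. Members called higher were 10 for KB-0742 against DMSO at 4 h in MOLT4 and 4 for KB-0742 at 8 h against 4 h in PSN1. Counts in the direction with fewer calls moved in 6 comparisons. A total of 17 named values lost their call. By the DESeq2 test members called lower were 8 for KI-CDK9d-32 against DMSO at 4 h in PSN1. Members called higher were 5 for KB-0742 at 8 h against 4 h in PSN1. In the direction with fewer calls the DESeq2 test gave 1 higher for KI-CDK9d-32 at 8 h against 4 h in MOLT4, 3 higher for KI-CDK9d-32 and 1 lower for KB-0742 in MOLT4 against RH4, and 7 lower for KB-0742 in PSN1 against RH4. With the replicate number as a replicate block members called lower were 8 for KI-CDK9d-32 against DMSO at 4 h in PSN1, 1 for KI-CDK9d-32 at 8 h against 4 h in PSN1 and KI-CDK9d-32 in PSN1 against RH4 and 5 for KI-CDK9d-32 against DMSO at 4 h in RH4. Members called higher were 5 for KB-0742 at 8 h against 4 h in PSN1 and 11 for KB-0742 in MOLT4 against RH4. In the direction with fewer calls 7 of 34 counts moved. A total of 4 named values gained a call. The labels do not tie same-numbered libraries to each other, and the reported tests carry no block. Over all tested genes the deviations of same-numbered libraries had correlations of -0.019 to 0.078 in MOLT4, 0.035 to 0.169 in PSN1 and 0.017 to 0.123 in RH4. They were not over 0.1 in every pair. Correlations over so many genes can be small even where same-numbered libraries share a shift. As a hint from the data and not the design, a library correlated best with its own number in 25 of 34 cases in MOLT4, 22 of 28 in PSN1 and 17 of 24 in RH4. In PSN1 at 4 h the member medians in replicates 1 to 4 were 0.11, 0.12, -0.09 and -0.13 with DMSO. They were -0.05, 0.06, -0.21 and -0.42 with KI-CDK9d-32 and 0.19, 0.32, 0.007 and -0.12 with KB-0742. Some other groups, as in MOLT4 at 8 h, were less alike. Tests without a block do not take such a pairing into account. Leaving out 1 library at a time, called members numbered 1 to 5 for KI-CDK9d-32 against DMSO at 4 h in PSN1, 5 to 11 for KB-0742 against DMSO at 4 h in PSN1, 5 to 10 for KI-CDK9d-32 against KB-0742 at 4 h in PSN1, 8 to 14 for KI-CDK9d-32 against DMSO at 8 h in PSN1, 0 to 4 for KB-0742 at 8 h against 4 h in PSN1, 1 to 4 for KI-CDK9d-32 against DMSO at 4 h in RH4, 3 to 9 for KI-CDK9d-32 against KB-0742 at 4 h in RH4 and 7 to 11 for KB-0742 at 8 h against 4 h in RH4. For differences between lines only the 6 treated libraries with the highest spike-in share of their 8 h group were left out. Promoters read over 150 bases before to 50 after the start also held CACGTG in 15 members. Depth limits the scarce members: UTP20, NOC3L, WDR75 and SBDS had few counts in some groups, and a p that misses the threshold does not show equal levels. The causes of these changes were not tested.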
